A study of Acromyrmex echinatior with 18 samples.

Results

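Gs1 (Aech_14517) is the glutamine synthetase gene of the leaf-cutting ant Acromyrmex echinatior, named here after its fly ortholog. Its RNA editing sites were taken from a table of 17229 sites as all sites assigned to that gene, which gave 48. Editing was measured in RNA from heads and checked against DNA from bodies of small workers, large workers and gynes, the winged females that can found colonies. Each caste was sampled from 3 colonies, Ae322 (A), Ae356 (B) and Ae363 (C), with 1 RNA library and 1 DNA library per caste and colony, 9 of each kind. Each RNA library came from 1 pool of heads of 1 colony, 200 heads for small workers and 50 heads for large workers and for gynes. No treatment is named, the ants' ages are not given in the labels, and a library stands for a pool of ants and not for an ant.

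Glutamine synthetase joins ammonia to glutamate to make glutamine. In nervous systems glial cells use it to turn glutamate taken up from synapses into glutamine, and in Drosophila melanogaster, Gs1 encodes the mitochondrial form of the enzyme. Adenosine-to-inosine editing is carried out by ADAR enzymes on double-stranded RNA, which often forms where copies of a repeat lie near each other in introns and 3′ UTRs, and sequencing reads inosine as G.

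The 48 sites were all A-to-G changes on the minus strand of scaffold 307 of assembly Aech_2.0, between positions 8649 and 29965. The 3′ UTR held 43 of them, between positions 8649 and 11568, 19 inside and 24 outside annotated transposable elements. The other 5 lay in introns, 3 of them in transposable elements, and the nearest of these was 11905 bases upstream of the first 3′ UTR site. With a gap of more than 200 bases as the boundary, the sites formed 9 groups, 6 in the 3′ UTR and 3 in introns. In the direction of transcription, the 3′ UTR groups lay at 11568 to 11558 (2 sites), 10925 to 10922 (2 sites), 10239 to 10115 (13 sites), 9712 to 9514 (16 sites), 9041 to 8969 (8 sites) and 8670 to 8649 (2 sites).

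Within the 3′ UTR the median distance between neighbouring sites was 6 bases, and 7 pairs were adjacent bases. Reads were 90 bases long, so sites of 1 group often share reads and their levels are not independent of each other. Only 6 genes of the table had more sites, the next above with 53 and the next below with 46, and the median gene had 2. The gene was chosen by this number of sites, found in the same RNA libraries, so the number is given as a description.

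The scaffold carried 80 other sites, none of them assigned to a gene. The nearest beyond the 3′ UTR, at positions 6452 and 6451 on the same strand, had 12 edited of 209 reads and 13 edited of 206 reads over the 9 RNA libraries. Position 9575 inside the span was listed on the plus strand as a T-to-C change with 4 edited of 51 reads. In DNA every Gs1 site had 10 to 46 reads in each library and 0 with the edited base, and no other site of the table had an edited DNA read either.

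The RNA libraries held 19665 reads over the 48 sites, 2081 of them edited. The editing level of a site is its edited reads as a percentage of all its reads. Reads over the Gs1 sites numbered 3055, 3643 and 3393 in small workers of colonies A, B and C, 1379, 530 and 1383 in large workers, and 1718, 1389 and 3175 in gynes. The large worker library of colony B was the shallowest, with a median of 7 reads per Gs1 site against 12.5 to 58.5 in the other 8 libraries. The authors' mark for a site found in a library stood at 40, 41 and 40 Gs1 sites in small workers, at 35, 17 and 25 in large workers and at 27, 17 and 28 in gynes. Only 8 sites were marked in all 9 libraries.

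Levels differed widely from site to site. Over all libraries together, 18 sites were edited in under 5% of reads, 17 in 5% to 20% and 13 in over 20%, of which 8 lay in the 3′ UTR. The highest 3′ UTR levels were 67.2% at 10925, 50.9% at 9589, 50.7% at 9640, 44.5% at 10213 and 35.0% at 10208. The lowest were 1.78% at 9703, 2.29% at 9555 and 2.38% at 9698. These positions, other than 9589, 9703 and 9698, were singled out after their values were seen.

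**Figure D1:**
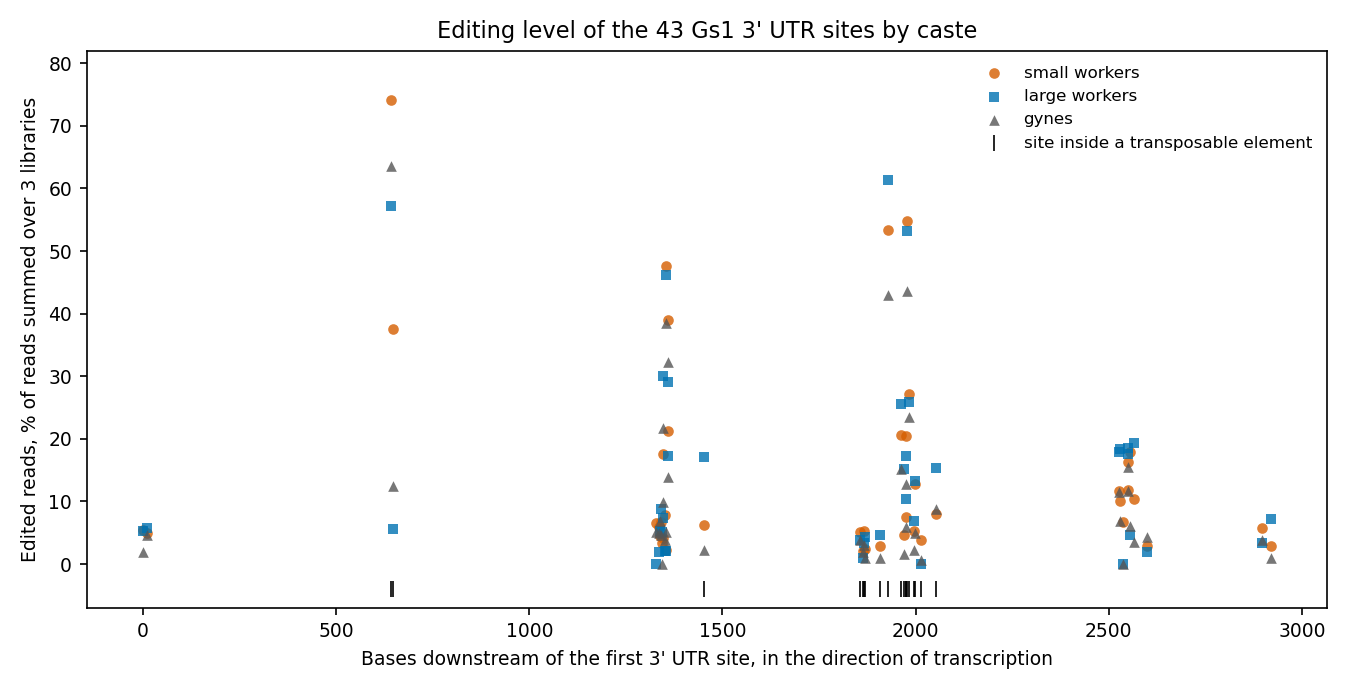
Editing level, in % of the reads of the 3 libraries of a caste, of the 43 sites in the 3′ UTR of Gs1 against the distance in bases downstream of the first site. Each site has 1 point per caste and ticks mark sites inside transposable elements. High and low sites stand side by side within a group, and over all 9 libraries the levels of single sites run from 1.78% to 67.2%.

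High and low sites stood within a few bases of each other. Position 9589 was edited in 280 of 550 reads (50.9%), and position 9593, 4 bases away, in 43 of 590 reads (7.29%). Position 10213 was edited in 113 of 254 reads (44.5%), and position 10215, 2 bases away, in 8 of 258 reads (3.10%). At the pair 10925 and 10922, the levels were 67.2% and 23.7%, on 119 and 114 reads. Since the same reads largely cover both members of such pairs, depth was nearly equal within each pair.

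The order of the sites varied between libraries. Over the 12 sites with at least 10 reads in all 9 libraries, Spearman's rho between the levels of 2 libraries ranged from -0.109 to 0.755, with a median of 0.388, and 2 to 4 of the 5 sites with the highest levels were among the top 5 in each library. Over the 36 sites with at least 10 reads in all gyne and small worker libraries, a set chosen after the depths were seen, rho between 2 of these 6 libraries ranged from 0.359 to 0.802, with a median of 0.554. These correlations are across sites that share reads and are a description. Of the 5 sites of this set with the highest levels, 3 to 5 were among the top 5 in each of these libraries.

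The 2 most upstream of the 3′ UTR sites were the deepest and among the less edited. Position 11558 was covered by 192, 268 and 181 reads in small workers of colonies A, B and C, 96, 70 and 59 reads in large workers, and 173, 216 and 153 reads in gynes. Its level was 7.29%, 3.36% and 4.97% in small workers, 7.29%, 4.29% and 5.08% in large workers, and 1.73%, 3.70% and 9.15% in gynes. The castes overlapped at this site, and the gyne library of colony C had the highest of the 9 levels.

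The group at 10925 to 10922 had the highest level of any 3′ UTR group, 107 edited of 233 reads (45.9%). Summed over its 2 sites, the level was 54.8%, 50.0% and 64.5% in small workers of colonies A, B and C, 36.4%, 40.0% and 23.1% in large workers, and 38.1%, 57.1% and 34.7% in gynes. Small workers lay above large workers in every library, by 23.3 points (exact two-sided permutation p = 0.1, n = 3 and 3, the smallest p this design allows), on only 110 reads in small workers and 39 reads in large workers. The gyne levels overlapped those of both worker castes.

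The group of 13 sites at 10239 to 10115 was edited in 446 of 3507 reads (12.7%). Its level was 13.0%, 14.3% and 12.1% in small workers, 15.4%, 11.8% and 9.92% in large workers, and 23.8%, 6.67% and 9.78% in gynes. The gyne library of colony A stood highest and that of colony B lowest, on 185 reads and 150 reads over the 13 sites, so the spread among gynes covered all 6 worker libraries. At 10213 the gyne levels alone ran from 0% in colony B (10 reads) to 68.75% in colony A (16 reads).

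The group of 16 sites at 9712 to 9514, all within transposable elements, carried most of the reads, 10168, of which 1127 were edited (11.1%). Its level was 13.0%, 13.1% and 10.9% in small workers, 11.8%, 12.8% and 9.54% in large workers, and 8.84%, 13.1% and 8.11% in gynes. Colony C was lowest in each caste, and the gynes of colony B lay among the small workers. The mean was 12.3% ± 1.26 in small workers, 11.4% ± 1.65 in large workers and 10.0% ± 2.67 in gynes (SD, n = 3 each). Small workers minus gynes gave 2.33 points (exact two-sided permutation p = 0.3, n = 3 and 3).

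Downstream, the group at 9041 to 8969 was edited in 161 of 1644 reads (9.79%) and the last group, at 8670 to 8649, in 46 of 1206 reads (3.81%). In the 9041 group the level averaged 10.6% ± 4.27 in small workers, 10.1% ± 6.81 in large workers and 5.98% ± 4.50 in gynes (SD, n = 3 each). In the last group it averaged 4.18% ± 0.654, 5.37% ± 1.29 and 2.48% ± 1.08 in small workers, large workers and gynes (SD, n = 3 each). Large workers lay above gynes in every library of the last group, by 2.90 points (exact two-sided permutation p = 0.1, n = 3 and 3, the smallest possible). This difference and that at 10925 to 10922 were 2 of 18 comparisons over the 6 groups of the 3′ UTR, and neither could pass an adjustment over them.

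For tests of single sites, 12 Gs1 sites had at least 10 reads in all 9 libraries, among 5720 such sites in the table. Of the 36 others, 22 missed this minimum in the large worker library of colony B alone. Edited and unedited reads were compared between castes with a quasi-binomial model with limma's moderated dispersion and Benjamini-Hochberg adjustment over all 5720 sites. The share of all tested sites called at an adjusted p under 0.05 was 6% among the 3 castes, 8.23% for small workers against gynes, 0.175% for large workers against gynes, 0.839% for small against large workers, and 3.69% for both worker castes against gynes.

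No Gs1 site was called in any of these comparisons. At an unadjusted p under 0.05 there was 1 of 12 among castes, 1 for small workers against gynes, 1 for large workers against gynes, 0 for small against large workers and 1 for both worker castes against gynes, against 21.4%, 22.9%, 10.6%, 12.7% and 17.2% of all tested sites in the same order. With limma on arcsine-square-root levels, and with colony as replicate block, none of the 5720 sites was called in any comparison, so these fits say nothing about Gs1 (at an unadjusted p under 0.05, small workers against gynes had 922 sites with limma and 1207 with the block). The small number of tested sites, and depths down to 10 reads, limit what these tests could find.

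Mean levels were higher in small workers than in gynes at 10 of the 12 sites, against 74.6% of all tested sites, and the difference had a median of 1.51 points over the 12 sites and of 2.68 points over all. They were higher in large workers than in gynes at 8 sites (62.4% of all), with a median difference of 1.43 points against 1.22 points. They were higher in small than in large workers at 5 sites (63.8% of all), with a median difference of -0.25 points against 1.55 points. The 3 small worker levels all lay above the 3 gyne levels at 2 of the 12 sites (22% of all tested sites), 11568 and 9589, and lay below them at none (1.61% of all). Large workers lay above gynes without overlap at 1 site (9.83% of all) and below at none (2.15%), and small workers lay neither above (12.8%) nor below (2.78%) large workers without overlap at any of the 12.

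Position 11568 had the smallest p for small workers against gynes. Its level was 6.35%, 4.80% and 5.59% in small workers, 3.23%, 5.48% and 8.47% in large workers, and 1.60%, 2.88% and 0.690% in gynes. Every worker library stood above every gyne library. Small workers exceeded gynes by 3.85 points, with an adjusted p of 0.126 from the limma-moderated model.

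Position 9589, in the 16-site group, had the highest level of the 12 tested sites, with a mean of 51.6% over the 9 libraries. Its level was 57.1%, 52.2% and 55.2% in small workers, 57.1%, 70.0% and 45.2% in large workers, and 31.1%, 48.7% and 47.4% in gynes. Large workers overlapped both other castes, and the 70.0% of colony B rested on 10 reads. Small workers were 12.4 points above gynes, with an adjusted p of 0.279 from the same model.

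The next highest were 9019 and 9012, 7 bases apart in the 9041 group. At 9012 the level was 28.9%, 6.38% and 21.1% in small workers, 5.00%, 8.33% and 0% in large workers, and 12.5%, 0% and 0% in gynes. Small workers averaged 14.6 points above gynes (adjusted p = 0.325, limma-moderated model), with overlap at small workers of colony B. At 9019 the caste means were 16.4% ± 10.2 in small workers, 15.1% ± 19.3 in large workers and 15.6% ± 6.75 in gynes (SD, n = 3 each), on 10 to 42 reads per library.

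The 3 lowest of the tested sites were 9660, 9703 and 9698, all in the 16-site group. Position 9698 averaged 2.43% ± 0.521 in small workers, 3.32% ± 2.97 in large workers and 1.09% ± 1.09 in gynes (SD, n = 3 each), and position 9703 averaged 2.26% ± 2.67, 1.80% ± 2.03 and 2.95% ± 2.55 in the same order. Position 9660 averaged 2.92% ± 3.27, 3.64% ± 3.15 and 1.06% ± 1.18. Several libraries had 0 edited reads at these sites, and none of their differences between castes was called.

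Of the 36 sites with enough depth in small workers and gynes, the mean was higher in small workers at 27, against 74.5% of all sites of that depth. All 3 small worker levels lay above the 3 gyne levels at 4 of them, 11568, 10224, 9589 and 9555 (21.3% of all sites of that depth), and below at 0 (1.64%). At 10224 small workers had 5 edited of 147 reads, large workers 3 of 58 and gynes 0 of 84, and the gyne count allows a level of up to 3.57%. At 9555 there were 10 edited of 257 reads in small workers, 0 of 62 in large workers (which allows up to 4.84%) and 1 of 161 in gynes. In this larger set the limma-moderated model again called 0 Gs1 sites in each comparison. Of all 6896 sites of that depth it called 5.42% among castes, 7.4% for small workers against gynes, 0.16% for large workers against gynes, 0.638% for small against large workers and 3.09% for both worker castes against gynes.

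**Figure D2:**
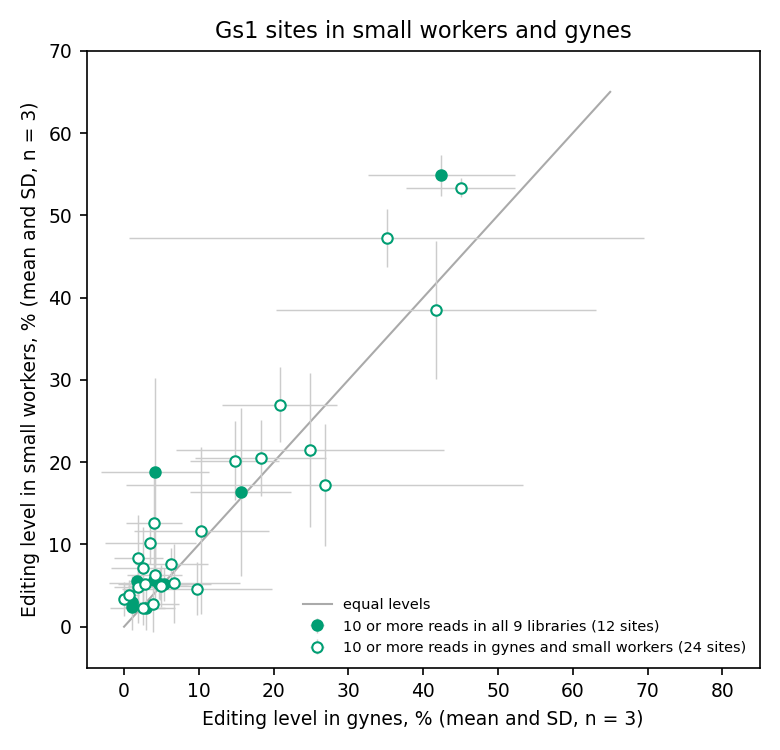
Editing level in small workers against that in gynes, in % (mean and SD, n = 3 libraries each), for the 36 Gs1 sites with at least 10 reads in these 6 libraries; filled points are the 12 sites with at least 10 reads in all 9 libraries. Of the 36 points, 27 lie above the line of equal levels, and most error bars cross it.

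As a gene, Gs1 was compared by its mean level over the 12 tested sites. It was 12.7%, 9.28% and 9.82% in small workers of colonies A, B and C, 11.7%, 9.21% and 7.72% in large workers, and 6.60%, 8.08% and 7.54% in gynes. The 3 small worker libraries stood above the 3 gyne libraries, while large workers overlapped both. The means were 10.6% ± 1.85, 9.56% ± 2.03 and 7.41% ± 0.747 in small workers, large workers and gynes (SD, n = 3 each).

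Small workers lay 3.20 points above gynes (exact two-sided permutation p = 0.1, n = 3 and 3, the smallest possible; limma adjusted p over 700 genes = 0.395). Within colonies the difference was 6.13 points in colony A, 1.21 in colony B and 2.28 in colony C. By site, it was largest at 9012 (14.6 points) and 9589 (12.4 points), each with 10 reads in its shallowest library. The next largest was 3.85 points at 11568, so the gene mean rests largely on 9012 and 9589. With limma, 2.29% of the 700 genes were called for small workers against gynes, and Gs1 was not among them. The 700 include genes with 1 tested site. When only the 230 genes with at least 3 tested sites were fitted, 93 were called, all higher in small workers. Gs1 was again not called (limma adjusted p = 0.102), and the median difference of these genes was 4.43 points. Large workers lay 2.15 points above gynes (exact permutation p = 0.2; limma adjusted p = 0.669), and 1.06 points above without large workers of colony A. Small workers lay 1.05 points above large workers (exact permutation p = 0.5; limma adjusted p = 0.837).

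The 6 worker libraries averaged 2.68 points more than the 3 gyne libraries (exact two-sided permutation p = 0.0595, with 0.0119 as the smallest value it can take; limma adjusted p = 0.458). Adjusted over the 4 comparisons of this level, the smallest exact p became 0.2. These permutations treat the libraries as exchangeable and ignore that the castes share the same 3 colonies. The set of sites matters for the order of castes: over the 36 sites the means were 13.2% ± 1.24 in small workers, 13.4% ± 2.31 in large workers and 10.6% ± 3.08 in gynes (SD, n = 3 each), with gynes of colony A at 14.1%. With at least 20 reads in all libraries, a set without 9012 and 9589, small workers minus gynes was 0.85 points and large workers minus gynes 0.369 points.

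Summed over the reads of all 48 sites, the level was 13.0%, 11.9% and 10.8% in small workers of colonies A, B and C, 12.2%, 9.62% and 9.54% in large workers, and 9.20%, 8.35% and 8.19% in gynes. All 6 worker libraries stood above all 3 gyne libraries, and in each colony the order was small workers, large workers, gynes. The mean was 11.9% ± 1.10 in small workers, 10.5% ± 1.5 in large workers and 8.58% ± 0.541 in gynes (SD, n = 3 each). Small workers minus gynes was 3.31 points and large workers minus gynes 1.87 points, each with an exact two-sided permutation p of 0.1 (n = 3 and 3, the smallest possible). Workers minus gynes was 2.59 points (exact permutation p = 0.0238, n = 6 and 3; 0.0952 after adjustment over 4 comparisons; exact sign-flip p within colonies 0.25, the smallest for 3 colonies). This sum gives deep sites more weight, and it was added after the sites' depths were seen. Weights also differed between libraries, given for colonies A, B and C. In gynes the pair 11568 and 11558 (4.51% edited) held 360 of 1718, 424 of 1389 and 298 of 3175 reads. In small workers it held 381 of 3055, 518 of 3643 and 342 of 3393. Sites were found in these same libraries, and the mark stood at 40 to 41 sites in small workers and 17 to 28 in gynes. Which sites entered the sum is thus not independent of these levels.

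The order of the caste means was the same over the rest of the table. Over all other tested A-to-G sites the mean level was 17.3% ± 0.204 in small workers, 14.9% ± 0.610 in large workers and 12.9% ± 0.236 in gynes (SD, n = 3 each), and small workers minus gynes was 4.47 points. Gs1 lay below the other sites in each library. A mean over 12 sites varies more than one over many sites, so the spreads of these 2 means between colonies cannot be set against each other. On the log odds scale, the Gs1 level minus that of the other sites was -0.36, -0.71 and -0.67 in small workers of colonies A, B and C, -0.33, -0.51 and -0.72 in large workers, and -0.76, -0.51 and -0.58 in gynes. The castes overlapped.

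On this scale, relative to other sites, small workers differed from gynes by 0.04 (exact two-sided permutation p = 0.8, n = 3 and 3), 0.40 in colony A, -0.20 in colony B and -0.09 in colony C. For large workers minus gynes it was 0.10 (exact permutation p = 0.5), for small minus large workers -0.06 (exact permutation p = 0.8), and for both worker castes minus gynes 0.07 (exact permutation p = 0.571, n = 6 and 3). A caste difference of Gs1 beyond that of the other sites was not detectable with these libraries.

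**Figure D3:**
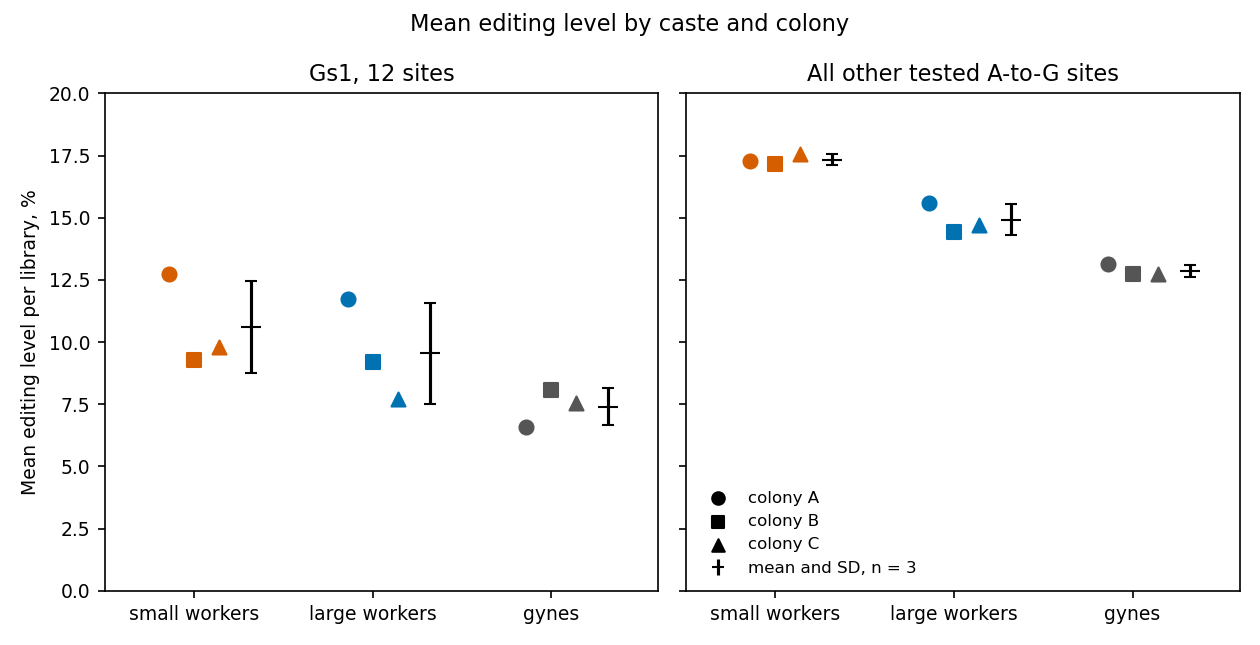
Mean editing level per library, in %, of the 12 tested Gs1 sites (left) and of all other tested A-to-G sites (right) in small workers, large workers and gynes; symbols are colonies, and bars give the mean and SD of 3 libraries. The Gs1 means are 10.6%, 9.56% and 7.41% and those of the other sites 17.3%, 14.9% and 12.9%.

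Inside the 3′ UTR, sites in transposable elements were edited in 11.8% of 10579 reads and sites outside in 8.55% of 8952 reads. The outside reads include those of the 2 deep sites 11568 and 11558, 125 edited of 2773. The median site level was 7.30% inside and 5.97% outside. Sites in transposable elements averaged 13.1% ± 1.14 in small workers, 12.4% ± 2.47 in large workers and 10.7% ± 2.77 in gynes, and sites outside averaged 9.43% ± 1.01, 8.66% ± 2.76 and 6.53% ± 2.58 in the same order (SD, n = 3 each). Small workers minus gynes was 2.39 points inside (exact two-sided permutation p = 0.3) and 2.89 points outside (exact permutation p = 0.1, the smallest possible, n = 3 and 3). In the gynes of colony B the levels inside and outside were farthest apart, 13.9% and 3.65%. There 11568 and 11558 held 424 of the 740 outside reads.

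The 5 intronic sites had higher levels and few reads, 69 edited of 134 reads (51.5%) over all libraries. In small workers 53 of 80 reads were edited (66.25%, 95% Wilson interval 55.4 to 75.7), in large workers 10 of 23 (43.5%, 25.6 to 63.2) and in gynes 6 of 31 (19.4%, 9.19 to 36.3). By library the level was 88.5%, 51.7% and 60% in small workers of colonies A, B and C, 38.5%, 20% and 80% in large workers, and 21.4%, 7.14% and 66.7% in gynes.

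The colony C values rested on 25 reads in small workers, 5 in large workers and 3 in gynes. Small workers minus gynes averaged 35.0 points (exact two-sided permutation p = 0.3, n = 3 and 3), with small workers higher in colonies A and B and lower in colony C. Some libraries had no reads at some of the 5 sites, so the levels of the libraries cover different sites. Site 28014, singled out after its values were seen, had edited reads only in small workers. They were 10 of 11 reads, against 0 of 2 in large workers and 0 of 4 in gynes. The listing of such a site is not independent of this caste difference. The intervals cover counting error only, treat reads that span 2 sites as separate, and do not cover the spread between colonies. Of 2 other intronic sites singled out after their values were seen, 27895 had 11 edited of 12 reads over all libraries (91.7%). The other, 23473, had 10 edited of 11 reads in small workers, 4 of 9 in large workers and 4 of 12 in gynes.

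Read depth over Gs1 also varied, and by caste and colony in different ways. Scaled to 1000000 reads over all sites of the table, Gs1 had 3273, 3512 and 4109 RNA reads in small workers of colonies A, B and C, 1818, 1104 and 2719 in large workers, and 2640, 2252 and 5807 in gynes. All small worker values lay above all large worker values, a difference of 1.04 on the log2 scale (exact two-sided permutation p = 0.1, n = 3 and 3, the smallest possible; 0.4 after adjustment over 4 comparisons of the untransformed share). Gynes overlapped both, and small workers minus gynes was 0.15 (exact permutation p = 0.8) and large workers minus gynes -0.89 (exact permutation p = 0.3).

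DNA reads over the same sites were 2593 to 2900 on the same scale in all 9 DNA libraries. The RNA share counts only reads over editing sites, mostly in the 3′ UTR, and is not a measure of the whole transcript. In pooled heads, fewer cells that express Gs1 and less Gs1 RNA per cell cannot be told apart.

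Depth along the 3′ UTR differed most between colonies. Reads per site over the 5 sites at 9712 to 9660, divided by those over the 2 sites at 11568 and 11558, gave 0.788, 0.671 and 1.13 in small workers of colonies A, B and C, 0.665, 0.322 and 1.77 in large workers, and 0.437, 0.208 and 1.14 in gynes. In each caste colony C was highest and colony B lowest. Between castes the ratio overlapped, with small workers minus gynes at 0.84 on the log2 scale (exact two-sided permutation p = 0.4, n = 3 and 3). The same ratio in DNA was 1.60, 1.55 and 2.35 in small workers, 1.29, 1.49 and 1.40 in large workers and 0.848, 0.821 and 0.822 in gynes, where the colonies followed the order seen in RNA in small workers and another order in large workers and gynes. The part of depth in the levels by caste was not tested.

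**Figure D4:**
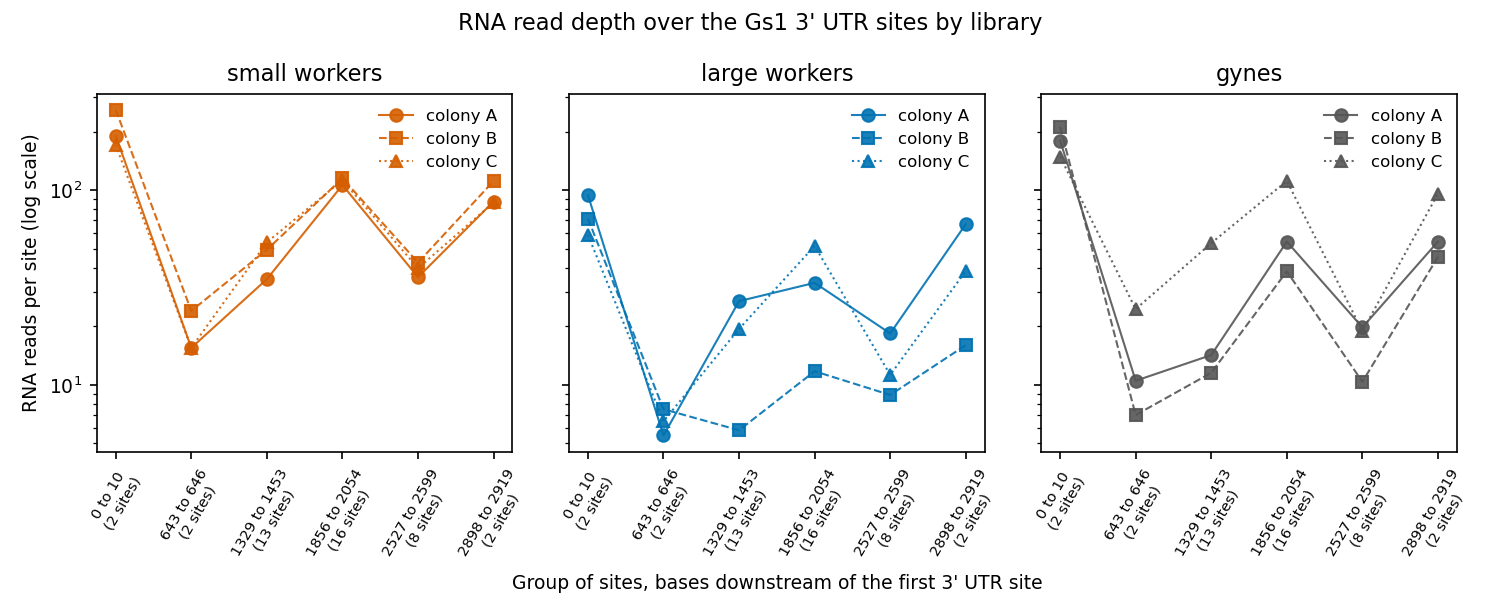
RNA reads per site (log axis) in the 6 groups of Gs1 sites along the 3′ UTR, in small workers, large workers and gynes; each line is the library of 1 colony. Depth is highest at the first group and lowest at the group at 10925 to 10922 in most libraries, and from the third group on the large worker library of colony B lies below all others.

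Among the 70 other genes with at least 10 tested sites, those with the levels most like Gs1 over the 9 libraries were named by the mean absolute difference. They were Aech_11733, annotated as prestin (1.64 points), bsk, the stress kinase JNK (1.68 points), CG15141, annotated as the ubiquitin ligase UBR7 (1.88 points), the uncharacterized Aech_12770 (1.98 points) and Aech_06052, a calcium/calmodulin-dependent kinase II (2.02 points). Prestin averaged 10.6% ± 0.369 in small workers, 11.5% ± 2.25 in large workers and 8.02% ± 0.767 in gynes, and bsk 11.4% ± 0.244, 9.10% ± 1.74 and 7.60% ± 2.07 in the same order (SD, n = 3 each). Of these 71 genes, Gs1 ranked 59 in mean level and 54 in the difference between small workers and gynes.

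Mdh1, a malate dehydrogenase, and Hsc70-4, a chaperone, also carry dense 3′ UTR sites and were tested at more of them. Over 81 sites Mdh1 averaged 17.1% ± 0.574 in small workers, 14.4% ± 0.851 in large workers and 13.3% ± 0.716 in gynes, and over 58 sites Hsc70-4 averaged 16.3% ± 0.890, 13.9% ± 0.199 and 11.5% ± 0.378 in the same order (SD, n = 3 each). Both lay above Gs1 in each caste. The difference between small workers and gynes was 3.76 points in Mdh1 (limma adjusted p = 0.331) and 4.75 points in Hsc70-4 (limma adjusted p = 0.193), against 3.20 points in Gs1, and none was called.

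Of a list of 52 symbols for enzymes, transporters and receptors of glutamate, glutamine and GABA, 12 genes besides Gs1 had editing sites, 59 in all, and 8 of them had 31 tested sites. In small workers against gynes 1 of the 31 sites was called, against 8.23% of all 5720 tested sites. It lay in Rdl, a subunit of the GABA-gated chloride channel, with an adjusted p of 0.0141 from the limma-moderated model. Over its 5 tested sites Rdl averaged 25.4% ± 3.64 in small workers, 20.5% ± 5.26 in large workers and 13.5% ± 3.79 in gynes (SD, n = 3 each; limma adjusted p for the gene = 0.114).

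Got1, an aspartate aminotransferase that uses glutamate, averaged 4.49% ± 0.927 in small workers, 3.61% ± 1.31 in large workers and 1.73% ± 1.05 in gynes at its 1 tested site (SD, n = 3 each; limma adjusted p = 0.214). Grip, which binds glutamate receptors, had 21 sites in its 3′ UTR, second to Gs1 in the list, and averaged 21.8% ± 4.18, 21.7% ± 3.52 and 24.2% ± 0.824 in small workers, large workers and gynes over 17 tested sites (SD, n = 3 each). The mean was higher in small workers than in gynes in 3 of the 8 genes, against 70.9% of all 700 genes tested. These were Got1, Rdl and Gclc, the catalytic subunit of glutathione synthesis' first enzyme. Eaat2, a glutamate transporter, had 2 tested sites and averaged 3.89% ± 0.635 in small workers, 3.81% ± 1.08 in large workers and 4.43% ± 1.03 in gynes (SD, n = 3 each). No gene of the list other than Rdl had a called site in any comparison.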

How the data were processed

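Per the file headers, the authors deposited a packed count of reads with the reference and with the edited base for each site in 9 RNA and 9 DNA libraries, on assembly Aech_2.0, with a mark where a site was found in a library. BWA 0.5.9-r16 is named in the submitters' processing notes. Strand-specific libraries of polyadenylated RNA were read as pairs of 90 bases, per the labels' protocols. How sites were chosen is not given in the sources used here. No genome sequence was used here.

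The 5720 sites read 10 or more times in each RNA library entered a quasi-binomial logistic model (R 4.3.3), the dispersion moderated by squeezeVar of limma 3.58.1 (trend on depth, robust, floor 1), and called at an adjusted p under 0.05. Genes (700) were tested with limma on the arcsine-square-root of their mean level. Libraries were compared with exact permutation tests written in Python 3.11.15. Wilson intervals and Spearman's rho came from SciPy 1.17.1. On simulated data for small workers against gynes (5720 sites), the model found 31% of sites with a log odds change of 1 and 77% with 2. Of its calls, 7.692% were false. The simulation raised the level in small workers alone, at 200 sites drawn from the whole table. It used 1 setting of the spread between libraries and no colony effect. These rates are for the whole table and not for the Gs1 sites. Replicate libraries of a caste differed beyond sampling noise, so all 9 counted separately. Colonies pair the libraries: deviations from caste means correlated with a median r of 0.0237 within colonies and of -0.0117 between them. The ranges overlapped, -0.0225 to 0.0665 within and -0.0561 to 0.0416 between. Deviations in a caste sum to 0, so the 2 medians are tied to each other and are no independent contrast. Named sites were the 3 highest and 3 lowest tested sites by mean level, the deepest site and called sites; others are said to be chosen after their values were seen, as were the intronic sites, the neighbouring pairs and the sites named for groups that do not overlap. The gene, its sites and the lists were chosen with earlier results of these data known. The table holds no expression values, so the labelled tissue was not checked with markers. Reads carry no molecular identifiers, so intervals and limits of a count of 0 (3 counts) cover counting error only.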

Additional observations from a re-analysis of the deposited data

How the results depend on the processing

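Over the 5 comparisons, 90 alternative counts of called Gs1 sites were made, and 10 of them, from limma on levels and from the replicate block, are void because no site of the table was called. The other 80 (coverage of 5 or 20 reads, other dispersion settings, A-to-G sites alone, an offset for the overall level, each library left out, and a wider set of sites added after the depths were seen) were 0 for Gs1, where 78 (with the offset) to 512 sites of the table were called for small workers against gynes, against 471 as reported. In the same settings 3 to 27 sites of the table were called for large workers against gynes, and 5 to 50 for small against large workers. A count of 0 at Gs1 says little in either comparison. Without the floor on the dispersion, the numbers of calls were the same as reported. The lowest adjusted p for small workers against gynes over these settings was 0.0996, at 11568. With colony as replicate block, the gene-level difference of 3.20 points between small workers and gynes had a limma adjusted p of 0.442, against 0.395 without it; over all genes the block left 0 of the 16 calls in that comparison, and 0 of the 471 site calls. The gene level of small workers minus gynes stayed positive, from 0.459 to 6.39 points (limma adjusted p from 0.102 to 0.938). With a library left out it ran from 2.14 to 3.87 points. The 0.459 is relative to the mean over genes, another quantity than the 3.20 points. The 6.39 rests on only 2 Gs1 sites, those tested and marked in all libraries. The 0.102 belongs to the fit of the 230 genes with at least 3 tested sites, where 93 genes were called and the Gs1 difference stayed at 3.20 points. Large workers minus gynes ran from 0.369 (6 sites with at least 20 reads) to 7.85 points (the same 2 marked sites). With a library left out it ran from 1.06 (without large workers of colony A) to 3.05. Directions that turned were all of small differences that no test called. Small minus large workers was -1.46 points over the 2 marked sites, -0.43 relative to the mean over genes and -0.27 over the 36 sites. With a library left out it was -0.00481 to 2.14 (lowest without small workers of colony A). Relative to other sites, small minus large workers was 0.0934 with summed reads and -0.167 to 0.037 with a library left out. With a library left out, small workers minus gynes was -0.104 to 0.101 there, large workers minus gynes -0.000682 to 0.173, and workers minus gynes -0.043 to 0.123. The log2 share of reads was -0.115 to 0.568 for small workers minus gynes and -0.634 to 0.049 for workers minus gynes. The cause was not tested. Depth limits the levels: 34 of the 48 sites had under 10 reads in the large worker library of colony B.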

Other observations

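The DNA depth ratio of the downstream to the upstream 3′ UTR sites, 0.821 to 0.848 in gynes, lay below its range of 1.29 to 2.35 in workers, with 22.6 to 24.6 DNA reads per downstream site in gynes, against 29.4 to 36.4 in workers. This difference was seen after the values were computed, was not tested, and concerns bodies and not heads.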
